A study of Mus musculus with 6 samples.

Results

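The 9 transcription factors described here, Prox1, Neurod1, Neurod2, Neurod6, Emx1, Emx2, Lhx2, Zbtb20 and Tbr1, are known for setting up or maintaining the identity of hippocampal neurons. They were chosen by name and matched to the gene symbols of the array's probe annotation, taking for each gene the probe set whose mean over the 6 arrays was highest, and all 9 were found among the 19938 genes measured. Expression was measured in the dentate gyrus (DG) granule cell layer of 3 Bcl11b/Ctip2 mutant and 3 control samples, each on 1 Affymetrix whole-transcript array. Mutants carried Bcl11b flox/flox alleles with tetO-Cre and CaMKIIα-tTA, so that Cre was made in forebrain neurons, not in granule cells alone, once doxycycline was withdrawn. The sources used here do not give the genotype of the tet-off controls. Both groups received doxycycline until 2 months of age, and 4 weeks later the layer was taken from stained sections by laser capture. A captured layer holds other cells beside granule cells. No source used here says whether each sample came from 1 animal, so p-values measure only the spread between these samples, which may be technical.

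Granule neurons of the dentate gyrus arise throughout life from progenitors that pass through a sequence of transcription factors. NeuroD proteins are basic helix-loop-helix activators that pair with E proteins on the sequence CANNTG, the E-box, and drive neuronal differentiation. Prox1 is a homeodomain protein that fixes granule cell over CA3 pyramidal fate and is kept on in mature granule cells. Emx1, Emx2 and Lhx2 are homeodomain factors that pattern the embryonic pallium and allow the hippocampus to form. Zbtb20, a zinc finger repressor, separates hippocampal from isocortical identity, and Tbr1, a T-box factor, is best known from deep-layer neurons of the isocortex and from newborn glutamatergic neurons.

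Tbr1 was 3.20-fold higher in the captured granule cell layer of mutants than of controls, and Lhx2 and Neurod1 were higher by smaller factors of 1.33 and 1.26. Prox1, Neurod2, Neurod6, Emx1 and Emx2 did not pass the test, and Zbtb20 lay just outside it. No factor of the 9 was called lower. All values are log2 expression values as deposited, and mutants were compared with controls by limma, with p-values adjusted (Benjamini-Hochberg) over the 19938 genes and called under 0.05. At that threshold 3 of 9 factors were higher and 0 were lower, where 15.2% of all genes changed, 9.23% upward and 5.93% downward. Before adjustment 4 of 9 had a limma p under 0.05, against 27.2% of all genes. Without control 1 the number of changed factors was 4, when 22.5% of all genes changed. Without control 2 or any 1 mutant it was 2, when 9.46% to 9.8% of all genes changed. Among the 8 factors at or above the median level of all genes 3 changed, where 25% of such genes did. The median log2 change was 0.08 over the 9 factors and -0.0027 over all genes. A higher signal in a captured layer can come from more cells of a type or from more RNA per cell, and the arrays do not tell these apart.

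**Figure D1:**
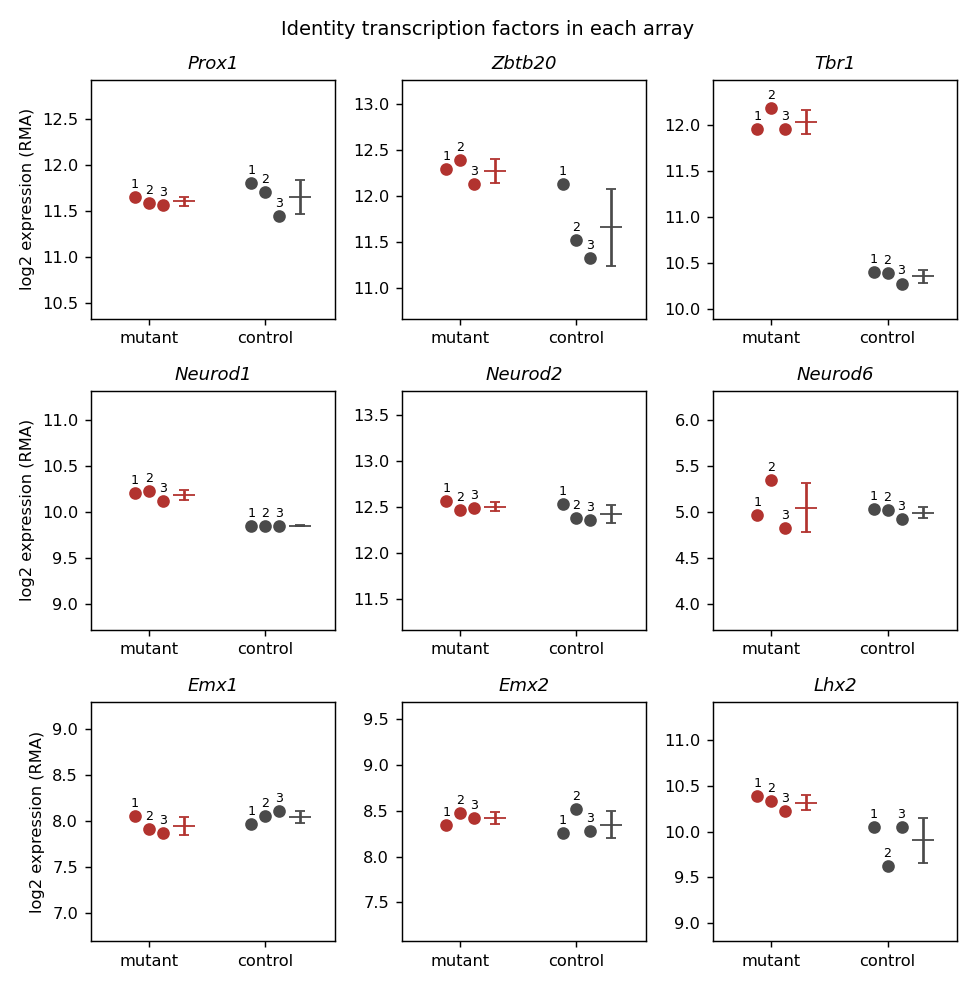
Log2 expression of the 9 factors in each array, with mutants on the left and controls on the right of each panel. Dots are arrays with their replicate number, bars show mean and SD over the 3 arrays of a group, and every vertical axis spans the same range of log2 units. The 3 mutant arrays of Tbr1 lie between 11.95 and 12.19, far above the controls, while those of Prox1 lie within the range of the controls.

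The Bcl11b probe set was at log2 levels of 9.03, 8.68 and 8.82 in mutants 1, 2 and 3 and of 10.56, 10.40 and 10.30 in controls 1, 2 and 3, which follows the labels. The sources used here do not give the position of its probes relative to the deleted part. The median of all probe sets lay between 6.29 and 6.36 on the 6 arrays. Prox1, the defining factor of granule cells, lay far above it on every array. The files hold no detection call, and a gene under the median cannot be shown to be above background.

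Tbr1 (probe set 10472313) showed the clearest difference of the 9 factors. Its log2 level was 11.95, 12.19 and 11.95 in mutants 1, 2 and 3. In controls 1, 2 and 3 it was 10.40, 10.39 and 10.28. Every mutant array lay above every control array, and the gap between the groups was many times the spread within either. The log2 change was 1.68 (standard error 0.0761, adjusted p = 4.85e-06 from limma, 95% interval 1.51 to 1.85), with means of 12.03 ± 0.13 in mutants and 10.35 ± 0.07 in controls (SD, n = 3 each). By p-value Tbr1 ranked 25 among the 19938 genes, and 0.261% of them changed by more in either direction. Leaving out any 1 array gave log2 changes between 1.6 and 1.72, and each of these passed the test.

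The genes whose 6 array values, each set against its own control mean, lay nearest to those of Tbr1 were Trhde, Hunk and Vat1. Trhde encodes an ectoenzyme that degrades thyrotropin-releasing hormone, Hunk a kinase and Vat1 a vesicle membrane protein. Their root mean square differences from Tbr1 over the 6 arrays were 0.085, 0.087 and 0.1 log2 units, and their own log2 changes were 1.73, 1.77 and 1.61. Likeness over 6 arrays in 2 groups is mostly likeness in the size of the change.

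The regulatory sequence before the start sites is shown for the 3 factors that changed and for Prox1, which did not pass the test. Each line is the 250 bases before a RefSeq start site of the mouse build GRCm38.p6, on the strand of the gene. Capitals mark TGGGC or its complement GCCCA, a putative Bcl11b/Ctip2 binding site, and the E-box CANNTG, both searched on both strands. The windows are chr2:61804203-61804452 (plus strand) for Tbr1, chr2:79456637-79456886 (minus strand) for Neurod1, chr2:38339031-38339280 (plus strand) for Lhx2 and chr1:190170828-190171077 (minus strand) for Prox1.
Tbr1: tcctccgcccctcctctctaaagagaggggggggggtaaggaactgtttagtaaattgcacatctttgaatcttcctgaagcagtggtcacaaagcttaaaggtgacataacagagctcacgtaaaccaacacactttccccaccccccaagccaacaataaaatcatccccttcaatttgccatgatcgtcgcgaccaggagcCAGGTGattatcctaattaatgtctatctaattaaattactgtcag
Neurod1: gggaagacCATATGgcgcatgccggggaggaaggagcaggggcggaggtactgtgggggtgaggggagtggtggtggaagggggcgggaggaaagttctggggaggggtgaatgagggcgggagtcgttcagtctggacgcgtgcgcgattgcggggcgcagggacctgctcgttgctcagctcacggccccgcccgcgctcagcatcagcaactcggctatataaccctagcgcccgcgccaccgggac
Lhx2: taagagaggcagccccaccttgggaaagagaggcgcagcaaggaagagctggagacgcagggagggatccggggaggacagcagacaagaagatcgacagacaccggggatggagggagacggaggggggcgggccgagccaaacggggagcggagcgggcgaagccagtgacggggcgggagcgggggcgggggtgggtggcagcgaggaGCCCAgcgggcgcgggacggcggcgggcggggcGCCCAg
Prox1: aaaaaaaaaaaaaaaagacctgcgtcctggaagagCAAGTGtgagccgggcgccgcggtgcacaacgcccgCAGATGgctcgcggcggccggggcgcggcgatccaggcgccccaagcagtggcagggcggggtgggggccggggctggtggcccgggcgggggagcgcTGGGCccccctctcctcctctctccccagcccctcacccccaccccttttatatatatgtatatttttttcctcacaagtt
The Tbr1 and Neurod1 windows hold no TGGGC on either strand and 1 E-box each, which lies 46 bases before the start site for Tbr1 and 242 bases before it for Neurod1. The Lhx2 window holds TGGGC 2 times on the opposite strand, 39 and 6 bases before the start site, and no E-box. The Prox1 window holds it 1 time, 81 bases before the start site, beside 2 E-boxes. RefSeq lists a second start site for Lhx2 and for Prox1. Over all 11 windows of the 9 factors, 7 hold TGGGC and 7 an E-box, where 50.7% and 66.2% of 32851 windows of the same length do. The windows of Neurod2, Neurod6, Emx1 and Emx2, which did not pass the test, hold TGGGC from 1 to 3 times, and in Neurod2 a TGGGC match overlaps an E-box by its last bases. The window of Zbtb20, which did not pass either, and the second window of Prox1 hold no TGGGC. These matches describe letters in a window and were not tested for binding.

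Prox1 (probe set 10361023) did not differ beyond the spread between arrays. Its log2 level was 11.65, 11.59 and 11.57 in mutants 1, 2 and 3 and 11.81, 11.70 and 11.45 in controls 1, 2 and 3. All 3 mutant arrays fell inside the control range, with an SD of 0.044 in mutants and 0.19 in controls. The log2 change was -0.05 (standard error 0.0892, adjusted p = 0.788 from limma), a fold of 0.966 with a 95% interval of 0.839 to 1.11.

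Of the 3 NeuroD factors, 1 passed the test. Neurod1 (probe set 10484276), which drives the differentiation of newborn granule cells, was at log2 levels of 10.21, 10.23 and 10.13 in mutants 1, 2 and 3. The controls lay at 9.85, 9.85 and 9.86, so close together that their SD was 0.0027. The groups did not overlap. The log2 change was 0.34 (standard error 0.0526, adjusted p = 0.0031 from limma), with means of 10.19 ± 0.05 in mutants and 9.85 ± 0.0027 in controls (SD, n = 3 each). Limma moderates so small a spread towards that of all genes, and leaving out any 1 array left the log2 change between 0.32 and 0.37 with adjusted p from 0.00342 to 0.0201. The nearest genes to Neurod1 by array values were Acot7, an acyl-CoA thioesterase, the tetraspanin Cd151 and the pantothenate kinase relative Pank4, at 0.021, 0.023 and 0.026 log2 units.

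Neurod2 (probe set 10390618), which acts in maturing and adult glutamatergic neurons, had log2 levels of 12.56, 12.46 and 12.48 in mutants 1, 2 and 3 and of 12.53, 12.38 and 12.35 in controls 1, 2 and 3. Control 1 lay above mutants 2 and 3, so the groups overlapped. Its log2 change was 0.08 (adjusted p = 0.484 from limma, 95% interval -0.06 to 0.23). Neurod6 (probe set 10544936), known from pyramidal neurons of the CA fields, had levels of 4.96, 5.34 and 4.83 in mutants 1, 2 and 3 and of 5.03, 5.02 and 4.92 in controls 1, 2 and 3. All 6 values lie under the array medians, so its log2 change of 0.05 (adjusted p = 0.832 from limma) may compare background with background, and mutant 2 alone stood above the rest. Whether the 3 NeuroD factors differed from one another in their response was not tested.

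Lhx2 (probe set 10471833), a LIM homeodomain factor that selects cortical fate in the embryo, had log2 levels of 10.38, 10.34 and 10.22 in mutants 1, 2 and 3. Controls 1 and 3 were at 10.05 each and control 2 was lower, at 9.62. The groups did not overlap, but the lowest mutant was nearer to controls 1 and 3 than control 2 was. The log2 change was 0.41 (standard error 0.112, adjusted p = 0.0412 from limma), with means of 10.31 ± 0.08 in mutants and 9.91 ± 0.24 in controls (SD, n = 3 each). Without control 2 it was 0.27 (adjusted p = 0.0567), and it also missed the threshold without mutant 1 (adjusted p = 0.146), mutant 2 (0.127) or mutant 3 (0.0789). The methods' t-test after adjustment gave 0.225. The nearest genes by array values were the AMPA receptor subunit Gria4, the tRNA-processing enzyme Elac1 and the lipase Pnpla2, at 0.044, 0.052 and 0.052 log2 units.

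Zbtb20 was measured by 2 probe sets that gave different sizes. The brighter (10435789) had log2 levels of 12.29, 12.39 and 12.13 in mutants 1, 2 and 3 and of 12.13, 11.52 and 11.32 in controls 1, 2 and 3. Control 1 reached mutant 3, while controls 2 and 3 lay well below every mutant. The log2 change was 0.61 (standard error 0.179, adjusted p = 0.0519 from limma), which missed the threshold narrowly, with means of 12.27 ± 0.13 in mutants and 11.65 ± 0.42 in controls (SD, n = 3 each). Without control 1 it was 0.85 (adjusted p = 2.04e-04). The call also turned with array weights (adjusted p = 0.0013), the filter on dim genes (0.0386), a trend with robust prior (0.0489), renewed quantile normalization (0.048) and the replicate block (0.0153). It did not turn with the methods' t-test after adjustment (0.269), centring (0.0608) or the mean of probe sets (0.0517). Nor did it turn without any other 1 array (adjusted p from 0.0944 to 0.177). The other probe set (10435769) was at 11.64, 11.77 and 11.60 in mutants 1, 2 and 3 and at 11.57, 11.55 and 11.52 in controls 1, 2 and 3. There every mutant array lay above every control array, with a log2 change of only 0.13 (adjusted p = 0.214 from limma over all probe sets). The annotation pairs the dimmer probe set with the curated transcripts of Zbtb20 and the brighter one with predicted transcripts and a cDNA. The transcripts that each one measured in these cells cannot be told from the annotation.

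Emx1 (probe set 10539584) and Emx2 (probe set 10464391), related homeodomain factors, did not pass the test. Emx1 was at 8.06, 7.91 and 7.87 in mutants 1, 2 and 3 and at 7.97, 8.05 and 8.11 in controls 1, 2 and 3. Emx2 was at 8.35, 8.48 and 8.42 in mutants 1, 2 and 3 and at 8.25, 8.52 and 8.27 in controls 1, 2 and 3. In both genes mutant and control arrays were interleaved. Their log2 changes were -0.10 (adjusted p = 0.42 from limma, 95% interval -0.25 to 0.06) and 0.07 (adjusted p = 0.654, 95% interval -0.11 to 0.25).

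**Figure D2:**
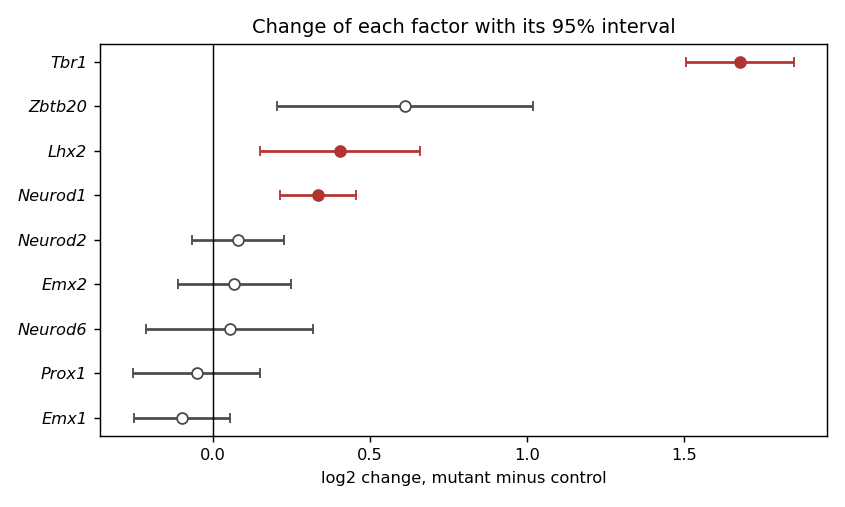
Log2 change of each factor, mutant minus control, on the horizontal axis, with the 95% interval from limma as bars. Filled red circles passed the adjusted threshold and open circles did not, with 3 arrays per group. Tbr1 stands apart at 1.68, Zbtb20, Lhx2 and Neurod1 lie between 0.34 and 0.61, and the intervals of the other 5 factors include 0.

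Array by array, mutants and controls did not overlap for Tbr1, Neurod1 and Lhx2, 3 of the 9 factors. Over all genes the groups did not overlap for 31.6%, for 17% with the mutants above and for 14.6% with the mutants below. The share among the 9 factors was close to that background.

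**Figure D3:**
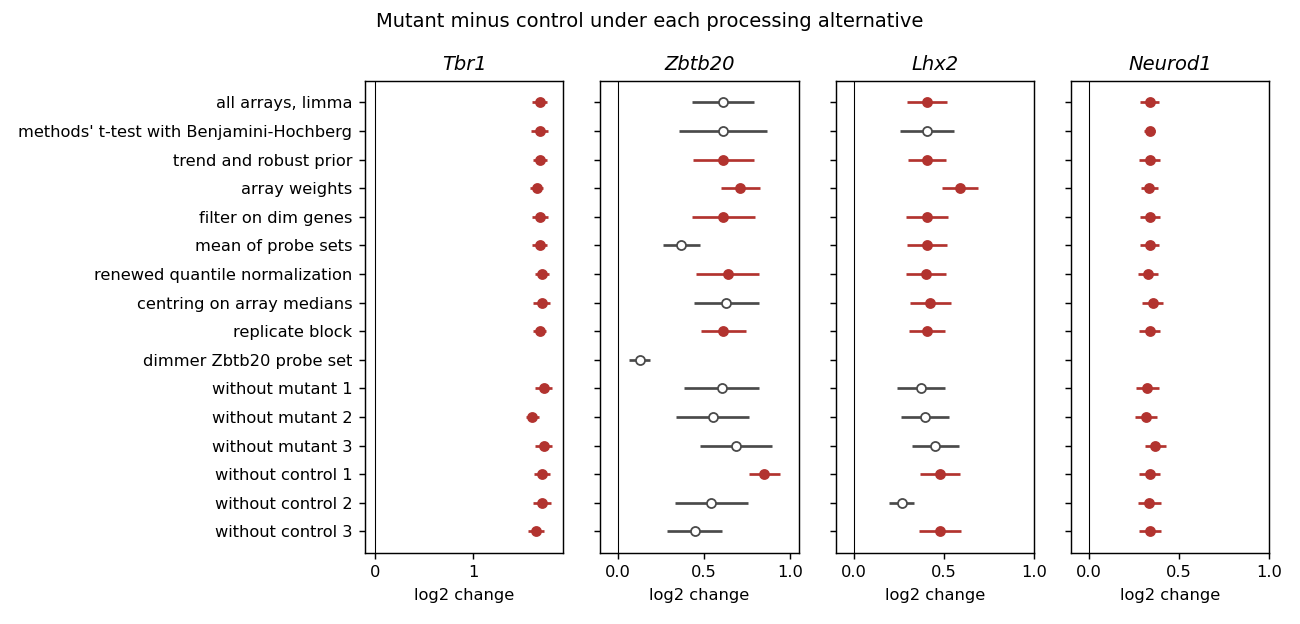
Log2 change, mutant minus control, of Tbr1, Zbtb20, Lhx2 and Neurod1 on the horizontal axes, each with its standard error, for limma on all arrays and for each alternative on the vertical axis. Filled red circles had an adjusted p under 0.05 and open circles did not. Tbr1 and Neurod1 passed in every setting shown and Lhx2 failed in 5. Zbtb20 passed in 6 settings, without control 1 among them, and failed in the others, its dimmer probe set among them.

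Of 10 close relatives of these factors, among them Neurod4, the neurogenins, Prox2 and Eomes, 1 rose and 9 missed the threshold, and the median log2 change was -0.05. That is a called share of 10%, where 15.2% of all genes were called. All but Lhx9 and Zbtb45 lay under the array medians on every array, so this count and median may largely describe background. The 1 that rose was Lhx9, the LIM homeodomain gene closest to Lhx2. It was at 9.65, 9.50 and 9.49 in mutants 1, 2 and 3 and at 8.62, 8.88 and 9.0 in controls 1, 2 and 3. Its log2 change of 0.71 (adjusted p = 0.00149 from limma) had no overlap of the groups, and the methods' t-test after adjustment gave 0.0627. Eomes, the T-box gene of intermediate progenitors and the nearest relative of Tbr1 in the list, had a level of 5.77 in mutants and 5.82 in controls, under the array medians. Tbx21, another T-box relative, had a log2 change of -0.16 (adjusted p = 0.112), and Zbtb45, a relative of Zbtb20, of 0.09 (adjusted p = 0.355).

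Among 14 partners and inhibitors of basic helix-loop-helix factors, 1 rose, 1 fell and 12 missed the threshold, and the median log2 change was -0.01. The share called was 14.3%, against 15.2% of all genes. Id2, which blocks such factors by taking up their E protein partners, was at 11.34, 11.52 and 11.31 in mutants 1, 2 and 3 and at 11.98, 11.94 and 12.01 in controls 1, 2 and 3. It fell by 0.59 on the log2 scale (adjusted p = 5.51e-04 from limma). The repressor Hey2 lay under the array medians in all 3 controls and in mutants 2 and 3. It rose by 0.62 and passed limma (adjusted p = 0.00712) but not the methods' t-test after adjustment (0.119). The E protein Tcf4, a partner of NeuroD factors, had a log2 change of 0.17 (adjusted p = 0.0766).

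Of 10 cofactors of LIM homeodomain proteins, 1 rose, 1 fell and 8 missed the threshold, and the median log2 change was 0.01. The share called was 20%, against 15.2% of all genes. LIM-only (Lmo) proteins compete with factors such as Lhx2 for the adaptor Ldb1. Lmo1 was at 7.06, 7.25 and 7.48 in mutants 1, 2 and 3 and at 8.52, 8.51 and 8.35 in controls 1, 2 and 3, a log2 change of -1.19 (adjusted p = 1.23e-04 from limma). Lmo3 rose by 0.38 (adjusted p = 0.00647 from limma, 0.0755 with the methods' t-test after adjustment). Ldb1 itself had a level of 11.45 in mutants and 11.45 in controls.

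Tbr1 belongs to a wider group of factors of isocortical projection neurons, several of which Zbtb20 is known to repress in the developing hippocampus. Of 13 others of that group, 3 rose, 1 fell and 9 missed the threshold, and the median log2 change was 0.10. The share called was 30.8%, against 15.2% of all genes. It rested on few genes, since 2 of the 13 (15.4%) were called without mutant 1, mutant 2 or control 2, when 9.46%, 9.8% and 9.69% of all genes were. Rorb, a nuclear receptor of layer-specific cortical neurons, was at 8.34, 8.25 and 8.32 in mutants 1, 2 and 3 and at 6.79, 6.96 and 7.23 in controls 1, 2 and 3. Its log2 change was 1.31 (adjusted p = 7.95e-05 from limma), the largest of the group. Mef2c rose by 0.46 and Pou3f3 by 0.30, while Etv1 fell by 0.44. Pou3f3 was called in 1 of the 6 fits that left out 1 array (without control 1), and Etv1 lost its call without mutant 1, mutant 2 or control 2. With the methods' t-test after adjustment Rorb passed and the other 3 did not. The deep-layer factors Fezf2 and Tle4, often named beside Tbr1, had log2 changes of 0.13 and 0.0042, and neither passed the test.

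Of 29 further factors of maturing and mature forebrain neurons, 6 rose, 4 fell and 19 missed the threshold, and the median log2 change was 0.06. That is a called share of 34.5%, where 15.2% of all genes were called. The chromatin organizer Satb1 rose by 0.95 (adjusted p = 1.32e-04 from limma) and the nuclear factor Nfic by 0.71. The ciliary gene regulator Rfx3 fell by 0.61 (adjusted p = 4.66e-04) and the activity-induced receptor Nr4a2 by 0.82. With the methods' t-test after adjustment 2 of the 10 passed, Satb1 and Rfx3. The number called was 5 (17.2%) without mutant 1 or mutant 3 and 6 (20.7%) without control 2. In these fits 9.46%, 9.78% and 9.69% of all genes were called.

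**Figure D4:**
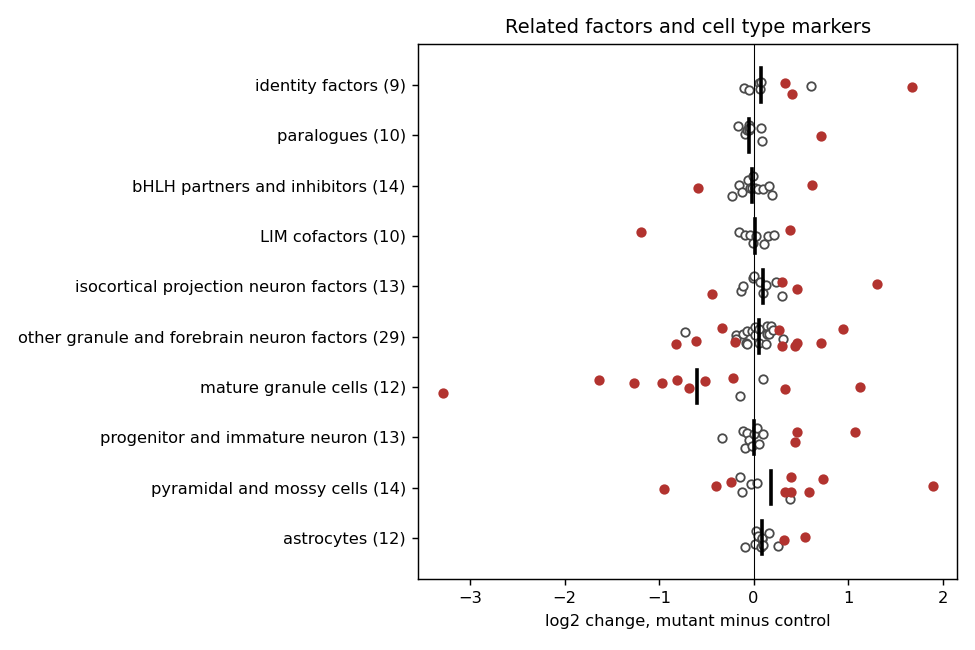
Log2 change of each gene, mutant minus control, on the horizontal axis, by list, with the number of genes measured in brackets. Filled red dots passed the adjusted threshold, open dots did not, and black lines are list medians. The medians of the 5 lists of transcription factors related to the 9 lie between -0.05 and 0.10, and that of mature granule cell markers lies at -0.60.

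Of 12 markers of mature granule cells, the cells that Prox1 marks, 2 rose, 8 fell and 2 missed the threshold, and the median log2 change was -0.60. That is a called share of 83.3%, where 15.2% of all genes were called. With the methods' t-test after adjustment 2 rose and 4 fell. The study chose C1ql2 of this list on these samples, so this gene, which fell by 3.29 on the log2 scale, is not independent evidence of the list's direction. The cation channel Trpc6 fell by 1.64 and the SNARE-binding protein Stxbp6 by 0.69, while Tdo2, an enzyme that degrades tryptophan, rose by 1.13. Neurod1 and Tbr1 are known from newborn neurons, and the next list also covers the progenitors before that stage. Of 13 markers of progenitors and immature neurons, 3 rose and 10 missed the threshold (23.1% called, against 15.2% of all genes). The median log2 change was 0.0030. The 3 were the microtubule genes Dcx and Stmn1, higher by 1.07 and 0.44, and the transcription factor Sox11, higher by 0.46. Of these, Stmn1 alone also passed the methods' t-test after adjustment (Dcx 0.0651, Sox11 0.0726). The summed level of this list, as log2, was 13.91 to 13.97 in mutants and 13.72 to 13.86 in controls. Its brightest genes weigh most in that sum. Stmn1 was at 12.29 in mutants and 11.85 in controls, Ncam1 at 12.16 and 12.18 and Fabp7 at 11.507 and 11.575. The part of this list in the changes of Neurod1 and Tbr1 was not tested.

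Markers of other cells that could lie in the captured layer were read beside these results. Of 14 markers of pyramidal and mossy cells, 6 rose and 3 fell (4 and 1 with the methods' t-test after adjustment), with summed levels of 13.62 to 13.66 in mutants and 13.54 to 13.54 in controls. That is a called share of 64.3% with limma, where 15.2% of all genes were called. The BCL2 family gene Bok rose by 1.90 and Fibcd1 fell by 0.94, whereas Neurod6, itself a pyramidal cell gene, lay under the array medians in both groups. Bok, at 10.11 in mutants and 8.21 in controls, set the order of the summed levels. The part of this list in the change of Tbr1 was not tested. Of 12 astrocyte markers, cells in which Zbtb20 is also known, 2 rose and 10 missed the threshold (16.7% called, against 15.2% of all genes). Gfap rose by 0.54 and Slc1a2 by 0.32, neither of which passed the methods' t-test after adjustment. Without control 2, 1 of them was called (8.33% of the list), when 9.69% of all genes were called. The summed level of astrocyte markers was 13.51 to 13.68 in mutants and 13.20 to 13.49 in controls. Slc1a2, the brightest of the list (12.26 in mutants, 11.94 in controls), weighs most in that sum. Aldoc, the next brightest, overlapped, at 11.31 to 11.54 in mutants and 11.06 to 11.55 in controls. The part of this list in the values of Zbtb20 and Lhx2 was not tested.

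Of 11 interneuron markers, 1 rose (Cck, by 1.56) and 2 fell (Npy by 0.58 and Gad1 by 0.27), and none of these passed the methods' t-test after adjustment. The called share with limma was 27.3%, where 15.2% of all genes were called. Gad1 lost its limma call without mutant 1, mutant 3 or control 3, and Npy without mutant 1. The summed level was 13.09 to 13.26 in mutants and 12.61 to 12.95 in controls, and Cck set that order. Without Cck the sum of the other 10 markers was 12.02 to 12.09 in mutants and 12.11 to 12.38 in controls. Of 7 Cajal-Retzius markers 2 rose and 1 fell, a called share of 42.9%, where 15.2% of all genes were called. The number called was 1 (14.3%) without mutant 1 or mutant 3, when 9.46% and 9.78% of all genes were called. Trp73 rose by 1.44, while Reln, the defining gene of these cells, had a level of 7.56 in mutants and 7.57 in controls. The summed level of this list was 9.95 to 9.99 in mutants and 9.56 to 9.80 in controls. Trp73, at 8.12 in mutants and 6.68 in controls, set that order.

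Of 11 oligodendrocyte markers 2 fell (18.2% called, against 15.2% of all genes), and 9 of 11 were lower by value. Ermn, a cytoskeletal protein of myelinating oligodendrocytes, fell by 1.71 (adjusted p = 0.00422 from limma) and Ugt8a, an enzyme of myelin lipid synthesis, by 0.34. The number called was 1 (9.09%) without mutant 3, control 2 or control 3 and 4 (36.4%) without control 1. In these fits 9.78%, 9.69%, 12.5% and 22.5% of all genes were called. All 11 microglia markers were lower by value, with a median log2 change of -0.26, against -0.0027 over all genes. The groups did not overlap for 2 of the 11, and for 31.6% of all genes. Of the 11, 1 passed the test (9.09%, against 15.2% of all genes), Tmem119, which fell by 0.32. Without control 1 the number was 6 (54.5%), when 22.5% of all genes were called. No marker of these 2 cell types passed the methods' t-test after adjustment. Summed levels were 11.42 to 11.64 in mutants and 11.71 to 11.77 in controls for oligodendrocytes, and 10.41 to 10.59 in mutants and 10.46 to 10.95 in controls for microglia.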

How the data were processed

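RNA of the captured layer was hybridized to 1-color arrays. The authors deposited log2 values, computed with RMA (background correction, quantile normalization and summary per probe set) in Affymetrix Expression Console. Tool versions were not stated in the sources used here. Quantile normalization implies that a shift common to all genes is removed. Of 35556 probe sets, 21789 are paired with 1 gene by the platform annotation. The probe set with the highest mean per gene was kept, without a filter on level, and 19938 genes were tested with limma 3.58.1 in R 4.3.3 (lmFit, eBayes, no covariates), which was tested on simulated data. An exact permutation test of 3 against 3 arrays cannot go below p = 0.1. The number of arrays limits the precision.

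The 9 factors and the lists were chosen with earlier results of these data known. Named are the 9 factors, up to 4 genes of each list with the smallest p, Bcl11b, and the 3 genes nearest to each changed factor, leaving out predicted genes, small RNAs and olfactory receptors. Neurod4, Prox2, Eomes, Ldb1, Fezf2, Tle4 and Reln were named after their values were seen. Promoter windows are from RefSeq (GRCm38.p6), and all 9 factors matched by symbol. The alternatives were the methods' t-test, array weights, a trend with robust prior, a filter that drops genes under the median level, the mean of probe sets, renewed quantile normalization, centring, the replicate number as a block, a threshold of 0.01 and leaving out each array. The dimmer Zbtb20 probe set was added after seeing the data.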

Additional observations from a re-analysis of the deposited data

How the results depend on the processing

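Tbr1 and Neurod1 kept their direction and stayed under the threshold in all alternatives run. Lhx2 (log2 change 0.41) missed it with the methods' t-test and at a threshold of 0.01, and without 1 array its log2 change ranged from 0.27 to 0.48. Zbtb20 (0.61) passed with the trend and robust prior (adjusted p = 0.0489), with array weights (log2 change 0.71), with the filter on dim genes (adjusted p = 0.0386), after renewed quantile normalization (log2 change 0.64) and with the replicate number as a block (log2 change 0.61, adjusted p = 0.0153). Zbtb20 missed the threshold with the methods' t-test (adjusted p = 0.269), with centring and with the mean of both probe sets, where its log2 change was 0.37. Without 1 array its log2 change ranged from 0.45 to 0.85, and it passed only without control 1. Of the factors that did not pass, Emx2 changed sign with array weights (-0.046), and with 1 array left out Prox1 ranged from -0.15 to 0.027 (without control 1) and Neurod6 from -0.094 (without mutant 2) to 0.16. The cause was not tested. Neurod6 has no value under the filter on dim genes, which leaves it out. The number of factors changed was 2 to 4 in all alternatives. The number of all genes changed was 1141 with the methods' t-test, 5527 with array weights and 1554 at a threshold of 0.01, and 1886 to 4487 without 1 array, lowest without any 1 mutant (1886, 1954 and 1949) or without control 2 (1931). With the block it was 3176.

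Same-numbered arrays had correlations of 0.164, -0.0328 and 0.118 between their deviations from the group means, and for 4 of 6 arrays the best match bore the same number. These values do not settle whether equal numbers are pairs. The labels do not say so, and the main test took no pairs. With the block Zbtb20 passed (adjusted p = 0.0153 from limma). The block changed no other call among the 9 factors. For the other named genes of the lists, 19 of 456 values under alternatives other than left-out arrays newly passed and 29 no longer passed, with no change of sign, and 27 of 117 counts per list moved by over 1.5 times.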
